A study of Mus musculus with 33 samples.

Results

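The genes described here mark spinal interneurons and were followed through every group of a study of cultured mouse motoneurons. Of the study's features, 9 of the 37926 gene records in the RNA tables were members, taken by symbol: Slc6a5, Slc32a1, Gad1, Gad2, Slc17a6, Pbx3, Lhx1, Lhx5 and En1. Each matched 1 record in the RNA tables and 1 gene among the 36194 of the iCLIP tables. The motoneuron cultures were from CD-1 mice, and for RNA-seq they grew in microfluidic chambers that separate axons from cell bodies and dendrites. There were 22 RNA-seq libraries in 6 groups, namely control (GFP) axons and control somatodendritic sides with 4 libraries each, hnRNP R knockdown axons and somatodendritic sides with 3 each, and 7SK knockdown axons and somatodendritic sides with 4 each. The labels give no treatment, so the sources used here give neither the means of knockdown nor what GFP stands for beyond a control. A further 11 libraries came from iCLIP, which counts cDNAs that stop where ultraviolet light joined a protein to RNA. They covered unfractionated, nuclear and cytoplasmic material with antibody 1 from wild-type motoneurons and from NSC34 cells, a mouse hybrid line with motoneuron traits, nuclear and cytoplasmic NSC34 material with antibody 2, and IgG on NSC34 cells.

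Spinal interneurons are sorted by the transmitter they release. Gad1 and Gad2 make GABA from glutamate, Slc6a5 takes glycine up into the nerve terminal, and Slc32a1 loads both GABA and glycine into synaptic vesicles. Slc17a6 loads glutamate and marks most excitatory interneurons of the spinal cord. Lhx1 and Lhx5 are LIM homeobox factors of several interneuron classes and En1 marks the inhibitory V1 class. Lhx1 is also a factor of the motoneurons that innervate dorsal limb muscle, and Pbx3 is a TALE homeobox factor, a Hox cofactor found in several kinds of spinal neuron, so neither marks interneurons alone.

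The targets bear on how the groups are read. Hnrnpr in cell bodies was at 27.2 FPKM without and 10.8 FPKM with hnRNP R knockdown, and in axons at 9.93 and 3.98 FPKM. It was not called in cell bodies (q = 0.310, per the authors' deposited table) and not tested in axons. After 7SK knockdown Rn7sk, the 7SK gene, fell by 0.52 on the log2 scale in cell bodies, with q = 0.00407 per the authors' deposited table. In hnRNP R knockdown cell bodies Rn7sk was called higher, at 9892 and 13493 FPKM (0.45 as log2 ratio and q = 0.00865, per the authors' deposited table). The axons labelled 7SK knockdown had 3508 FPKM of Rn7sk and control axons 2708, opposite to the label. Both knockdowns share control libraries: control values in the paired tables stayed in 1 ratio, within 5%, for 99.98% of axonal and 99.99% of somatodendritic genes. For the IgG library only its title gives its identity, since its file header carries hnRNP R as the protein and library number 14, as NSC34 replicate 2 does. Total iCLIP cDNAs ranged from 2796 to 456721. Nothing in the labels makes the replicates separate cultures, so p-values cover only the spread of these libraries, which may be technical.

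In the control cultures 7 of the 9 members stood above every motoneuron marker found on the somatodendritic side, while Lhx5 and En1 stood below several of them. FPKM are fragments scaled to transcript length and depth, given by the authors as 1 value per group, with no spread between libraries. On the somatodendritic side 8 of the 9 members stood at 1 FPKM or more, and the members summed to 233 FPKM, with Pbx3 and Lhx1 included. The motoneuron markers, with 15 of 16 found, summed to 49.6 FPKM, most of it from Ache (13.0), Foxp1 (10.9), Etv4 (9.33) and Ret (7.88). Chat, the enzyme that makes acetylcholine, and the motoneuron factors Mnx1 and Isl2 were listed at 0 in every RNA group. Isl1, a factor of motoneurons and some interneurons, stood at 2.42 FPKM in control cell bodies and 1.64 FPKM in control axons. The cultures labelled motoneuron thus had inhibitory and excitatory interneuron genes well above 1 FPKM and 3 defining motoneuron markers listed at 0. In such bulk samples fewer cells of a type and less RNA per cell cannot be told apart.

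**Figure D1:**
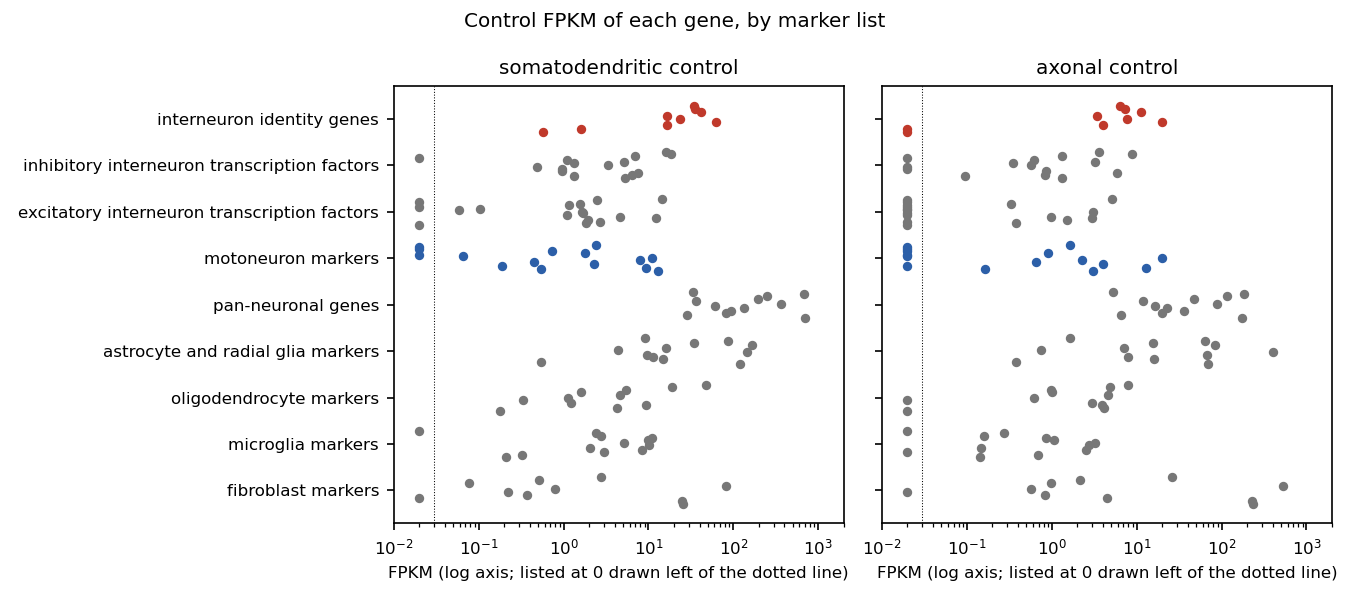
Control FPKM of each gene on the somatodendritic and axonal side (log axes), 1 point per gene and 1 row per marker list, with genes listed at 0 left of the dotted line. On the somatodendritic side 7 of the 9 interneuron identity genes (red) lie between 16.4 and 63.1 FPKM, and no motoneuron marker (blue) exceeds 13.0 FPKM.

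Among the members, the order of control somatodendritic levels was Pbx3, Gad1, Slc32a1, Slc6a5, Slc17a6, Gad2, Lhx1, Lhx5 and En1. Pbx3 stood at 63.1 FPKM, rank 547 from the top of 12560 genes at 1 FPKM or more. Gad1 followed at 41.4 FPKM (rank 996), Slc32a1 at 35.1 (rank 1237), Slc6a5 at 34.8 (rank 1257), Slc17a6 at 23.6 (rank 2122), Gad2 at 16.6 (rank 3139) and Lhx1 at 16.4 (rank 3174). The last members were Lhx5 at 1.61 FPKM (rank 11352) and En1 at 0.576 FPKM, under the 1 FPKM line. With no spread between libraries, it is not known which neighbours in this order differ; Slc32a1 and Slc6a5, and Gad2 and Lhx1, were nearly level. The Gad1 value is uncertain, because its record on chromosome 2 (GRCm38, 70489940 to 70602014) begins 71363 bases before the RefSeq gene and also covers Gad1os and Erich2. The Gad2, Slc17a6 and En1 records overlap Mir3967, Gm33136 and Gm34352, and whether the counting used strand is not given.

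The glutamate transporter thus lay inside the range of the 4 inhibitory transmitter genes, from Gad2 to Gad1, with the limit on the Gad1 record given above. No further factor listed for these classes stood above 18.3 FPKM, though the highest, Pax8, was above Gad2 (16.6 FPKM). Of 15 inhibitory interneuron factors 11 stood at 1 FPKM or more, with Pax8 at 18.3 and Pax2 at 16.3 FPKM the highest. Of 17 excitatory factors 12 did so, led by Lmx1b at 14.4 and Pou4f1 at 12.4 FPKM. The interneuron peptides Npy and Sst stood at 83.4 and 36.4 FPKM.

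Every member was lower on the axonal than on the somatodendritic side of the control cultures. Levels of 2 separately scaled tables are set side by side here, with no test. Slc6a5 stood at 6.29 FPKM in axons, 18.1% of its somatodendritic level, Gad2 at 3.44 FPKM (20.8%), Slc32a1 at 7.38 FPKM (21.0%), and Lhx1 at 4.05 FPKM (24.7%). The nearest to even were Gad1 at 11.3 FPKM (27.2%), Pbx3 at 20.0 FPKM (31.8%) and Slc17a6 at 7.64 FPKM (32.4%). Lhx5 and En1 were listed at 0 in control axons.

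The median log2 ratio of axon over somatodendritic control, with 0.1 FPKM added, was -2.11 over the 8 members at 1 FPKM or more, and 8 of 8 were lower. Over all 13576 such genes the median was -0.58 and 70.5% were lower. Pan-neuronal genes such as Gap43 and Tubb3 had a median of -2.01 (12 of 12 lower), and glycine and GABA synapse genes one of -1.79 (22 of 22 lower). Fibroblast markers ran the other way, with a median of 3.22 and 6 of 6 higher in axons, and their summed level was 1028 FPKM there against 137 FPKM on the somatodendritic side. Their part in the axonal values of the members was not tested.

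**Figure D2:**
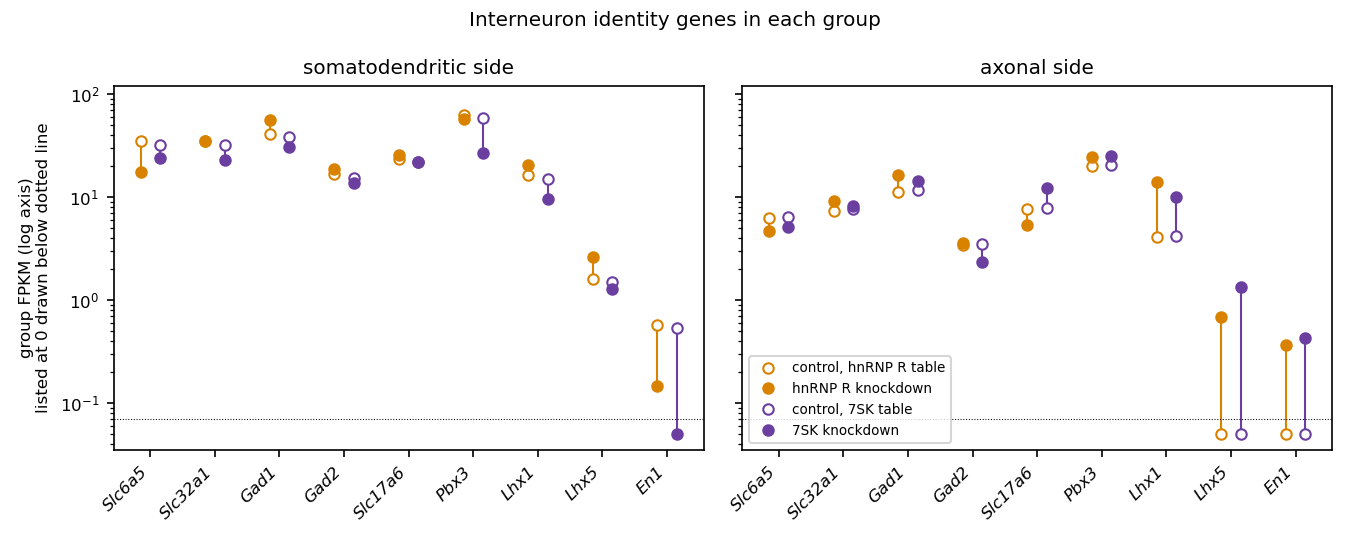
Group FPKM of the 9 interneuron identity genes (log axis), somatodendritic side left and axonal side right; open circles are the control as scaled in each table, filled circles the knockdown, and a line joins the 2. Slc6a5 drops from 34.8 to 17.5 FPKM in hnRNP R cell bodies and Pbx3 from 58.1 to 26.9 FPKM in 7SK cell bodies; values listed at 0 sit under the dotted line.

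Knockdown of hnRNP R lowered 1 interneuron gene in cell bodies, the glycine transporter Slc6a5. Its level was 34.8 FPKM with the control and 17.5 FPKM with the knockdown, or -0.99 on the log2 scale with q = 0.00865, per the authors' deposited table. It was the single call among 5 members tested. Over all 2768 genes tested there, 0.975% were called, and 0.614% were called lower. Slc32a1, which loads glycine and GABA into vesicles in the same terminals, stood at 35.1 FPKM in both groups (-0.0013 as log2 ratio and q = 0.997, per the authors' deposited table). Whether these genes differ in their response was not tested.

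Neither GABA enzyme was called. Gad1 stood at 41.4 and 56.6 FPKM, or 0.45 on the log2 scale with p = 0.0179 and q = 0.301, per the authors' deposited table. Gad2 stood at 16.6 and 18.8 FPKM and was not tested, since no gene under 20.9 FPKM in its higher group was. Over the list of 23 glycine and GABA synapse genes the median log2 ratio was -0.02, with 10 of 22 higher. Glra1, an alpha subunit of the glycine receptor, stood at 16.9 and 7.84 FPKM and was not tested.

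The glutamate transporter Slc17a6 was near level at 23.6 and 25.8 FPKM (0.13 as log2 ratio and q = 0.800, per the authors' deposited table). Among the homeobox factors Pbx3 stood at 63.1 and 57.4 FPKM (-0.14 as log2 ratio and q = 0.843, per the authors' deposited table). Lhx1 stood at 16.4 and 20.5 FPKM, Lhx5 at 1.61 and 2.63 FPKM and En1 at 0.576 and 0.144 FPKM, all too low for the authors' test. Over the 8 members at 1 FPKM or more, 5 were higher, where 51.9% of all genes were, and 3 lower. Their median log2 ratio was 0.16 against 0.03 over all genes. At an unadjusted p under 0.05, 2 of the 5 tested passed, beside 12.3% of all tested genes. The members' sum hardly moved, from 233 to 234 FPKM.

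Markers of other cells moved beside these values in hnRNP R cell bodies. Pan-neuronal genes were lower in 10 of 12 cases (median log2 ratio -0.21, sum 2646 to 2369 FPKM), with 0 of 12 tested called. Oligodendrocyte markers were higher in 8 of 9 cases (median 0.69, sum 94.3 to 137 FPKM), again with no call among 2 tested. The part of these in the fall of Slc6a5 was not tested.

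Knockdown of 7SK lowered a different member in cell bodies. Pbx3 fell from 58.1 to 26.9 FPKM, or -1.11 on the log2 scale with q = 0.00407, per the authors' deposited table. It was the single call among 4 members tested, beside 2.51% called and 1.07% called lower over all 1954 genes tested. The other TALE homeobox genes gave no call in this comparison, with 2 of 10 tested. Meis2 stood at 65.8 and 60.1 FPKM (-0.13 as log2 ratio and q = 0.908, per the authors' deposited table). Of these 10 genes 5 were higher and 5 lower.

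All 4 inhibitory transmitter genes had lower values in 7SK cell bodies, and none was called. Slc32a1 stood at 32.3 and 22.7 FPKM (-0.51 as log2 ratio, p = 0.0197 and q = 0.205, per the authors' deposited table). Slc6a5 stood at 32.0 and 23.9 FPKM (-0.42 as log2 ratio, p = 0.038 and q = 0.284, per the authors' deposited table). Gad1 stood at 38.0 and 30.8 FPKM (-0.31 as log2 ratio and q = 0.544, per the authors' deposited table). Gad2 was not tested at 15.2 and 13.6 FPKM. Whether 7SK knockdown and hnRNP R knockdown differ for Slc6a5 was not tested, and the comparisons share their controls.

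Slc17a6 was level at 21.7 and 22.0 FPKM in 7SK cell bodies and was not tested. Lhx1 stood at 15.1 and 9.56 FPKM and Lhx5 at 1.48 and 1.27 FPKM, both untested. En1 was listed at 0.529 FPKM without and at 0 with knockdown. Of the 8 members at 1 FPKM or more 7 were lower, where 43.2% of all genes were at or below the control, and the members' median log2 ratio was -0.36 against 0.09 over all genes. At an unadjusted p under 0.05, 3 of 4 tested members passed, beside 15.3% of all tested genes. The members' sum went from 214 to 151 FPKM.

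Pan-neuronal genes moved the same way in 7SK cell bodies. Of 12, 10 were lower (median log2 ratio -0.22, sum 2435 to 1993 FPKM), and 3 of 11 tested were called. These were the neurofilament subunits Nefm (log2 ratio -1.05, q = 0.00407) and Nefl (-0.64, q = 0.0132) and the growth cone protein Gap43 (-0.48, q = 0.00407) in the authors' deposited table. Markers of non-neuronal cells ran higher: oligodendrocyte genes in 8 of 9 cases (median 1.07, sum 86.8 to 113 FPKM), microglia genes in 7 of 9 (sum 50.8 to 80.8 FPKM), astrocyte and radial glia genes in 9 of 12 (median 0.32), and fibroblast genes in 4 of 4. Of the fibroblast list Acta2 (log2 ratio 0.77, q = 0.00407) and Fn1 (0.54, q = 0.00888) rose in the authors' deposited table. The part of this in the lower member levels was not tested.

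**Figure D3:**
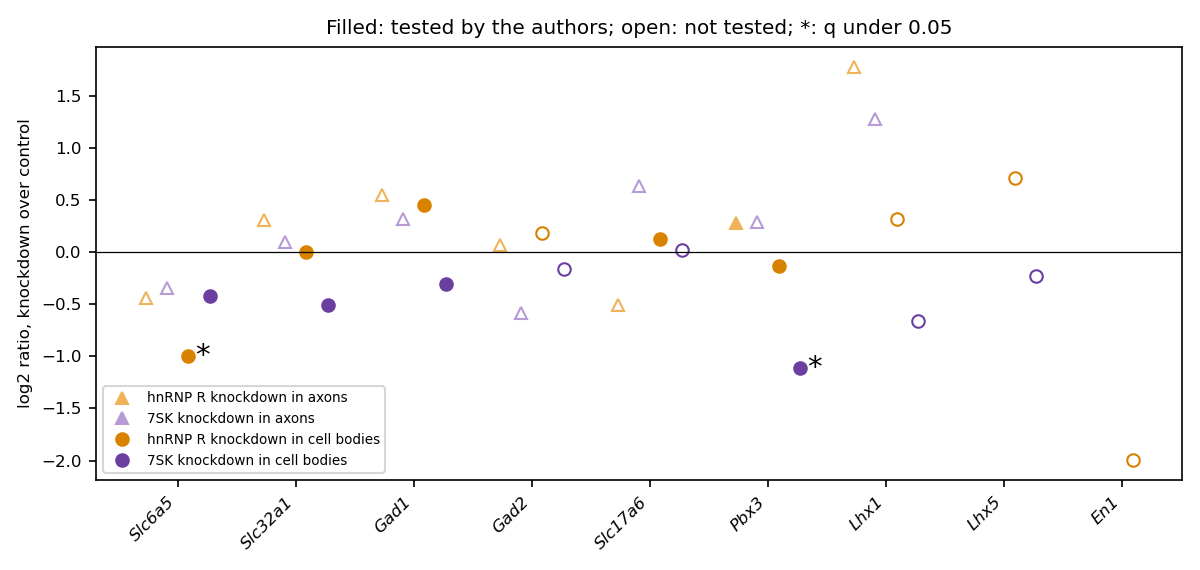
Log2 ratio of knockdown over control for each interneuron identity gene in the 4 comparisons (triangles: axons; circles: cell bodies), filled where the authors tested the gene and open where they did not. The 2 stars mark Slc6a5 after hnRNP R knockdown (-0.99) and Pbx3 after 7SK knockdown (-1.11); ratios with a group at 0 are not drawn.

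In axons no member was called after either knockdown. Only Pbx3 was tested in hnRNP R knockdown axons, and no member was tested in axons labelled 7SK knockdown. In hnRNP R knockdown axons Pbx3 stood at 24.3 FPKM against 20.0 FPKM in the control (0.28 as log2 ratio and q = 0.883, per the authors' deposited table). Over all genes 0.114% of 1749 tested were called in hnRNP R axons, and in axons labelled 7SK knockdown 3.07% of 1009. No gene was tested whose higher group was under 21.8 FPKM in the hnRNP R table or 35.5 FPKM in the 7SK table. The other 8 members stayed under those levels, and Pbx3 under that of the 7SK table. A count of 0 here is therefore set by how few members were tested.

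No inhibitory gene reached a log2 ratio of 1 in either direction in axons. Slc6a5 stood at 6.29 FPKM in control and 4.64 in hnRNP R knockdown axons, and at 6.47 and 5.10 in the 7SK table. Slc32a1 stood at 7.38 and 9.12 FPKM, and at 7.59 and 8.10. Gad1 stood at 11.3 and 16.4 FPKM, and at 11.6 and 14.4. Gad2 was the lowest of the inhibitory genes in each axonal group, with 3.44 and 3.61 FPKM, and 3.53 and 2.36.

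Slc17a6, the glutamate transporter, stood at 7.64 and 5.37 FPKM in the hnRNP R table and at 7.85 and 12.2 FPKM in the 7SK table, so its values lay on opposite sides of the control. Lhx1 stood at 4.05 and 13.9 FPKM with hnRNP R knockdown (log2 ratio 1.78) and at 4.15 and 10.0 FPKM in the group labelled 7SK knockdown (log2 ratio 1.28), both untested by the authors in their deposited table. Over all genes at 1 FPKM or more, whatever their level, 16.2% in hnRNP R axons and 21.8% in the 7SK table had a log2 ratio of 1 or more.

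Lhx5 and En1, listed at 0 in control axons, were listed at 0.678 and 0.368 FPKM in hnRNP R knockdown axons and at 1.33 and 0.424 FPKM in the group labelled 7SK knockdown. Pbx3 in that group stood at 25.1 FPKM against 20.6 in the control. Over the 7 members with a ratio the median log2 ratio was 0.28 in each axonal comparison, with 5 higher and 2 lower in each. Over all genes the medians were 0.04 and 0.07, with 51.7% and 53.1% higher. Microglia markers summed to 12.1 FPKM in control axons and 142 FPKM in axons labelled 7SK knockdown, where 8 of 8 were higher, and fibroblast markers to 1060 and 554 FPKM. There the smooth muscle actin Acta2 (-1.62 on the log2 scale, q = 0.0036) and Nes, a filament protein of neural progenitors (-1.65, q = 0.00797), fell in the authors' deposited table. The part of these cells in the members' values was not tested.

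The wider lists added few calls. None of the 15 inhibitory and 17 excitatory interneuron factors reached the authors' tested range in any comparison, and none of the glutamatergic genes or interneuron peptides tested was called. After 7SK knockdown Pax2, a factor of inhibitory interneurons, stood at 15.0 and 8.55 FPKM in cell bodies, and Lmx1b, a factor of excitatory ones, at 13.3 and 24.7 FPKM. After hnRNP R knockdown the same genes stood at 16.3 and 19.9 FPKM, and at 14.4 and 11.9 FPKM. In 7SK cell bodies both genes ran against the median of their list. Of the inhibitory factors with a ratio 6 were higher and 4 lower (median log2 ratio 0.16). Of the excitatory ones 4 were higher and 7 lower (median -0.81). In hnRNP R cell bodies the medians were 0.29 and -0.01, with 7 higher and 4 lower, and 5 higher and 7 lower. These untested values did not move as 1 group.

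Across the 8 group values of the 4 tables, where each control stands in both tables of its side, the genes most like Slc6a5 by Pearson r of log2(FPKM + 0.1) were Kndc1 (0.998), Ssh1 (0.997), Hpcal1 (0.994), Mmd (0.994) and Ndufaf4 (0.993). For Slc17a6 they were Serinc1, Ndfip1, Akap5, Cxxc4 and Ddx25, with r from 0.997 to 0.998. For Pbx3 they were Dnajc7 (0.997), Uchl1 (0.995), Tm9sf3, Brd7 and Mlxip. An r above 0.9 was reached by 1114, 1342 and 445 of 9728 genes. The values share the large step between axons and cell bodies, and an r this high was common.

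The iCLIP libraries held more than 40 cDNAs of 5 members in unfractionated motoneurons and, of these, at most 2 in NSC34 cells except for Pbx3. Slc17a6 gave 98 and 77 cDNAs in unfractionated motoneuron replicates 1 and 2, and 0 in both NSC34 replicates. Gad2 gave 68 and 45 against 2 and 0, Gad1 49 and 39 against 1 and 0, and Slc6a5 26 and 20 against 0 and 0. The groups, of 2 libraries each, did not overlap for these 4 genes, and how common this was over all genes was not counted. Since these 4 genes passed the filter only through the motoneuron libraries, nothing is read from the lack of overlap. In cDNAs per 1000000 cDNAs of the library (CPM), Slc17a6 stood 47.9-fold and Slc6a5 12.6-fold above a floor for the NSC34 group. That floor was 3 cDNAs over the group (5.39 CPM). The exact 95% lower limits of the ratio of motoneurons over NSC34 cells, from counting error, were 38.5 and 9.82. The ratio was 72.2 for Gad1 (exact 95% counting interval 12.6 to 2883) and 46.3 for Gad2 (12.5 to 387). These differences hold the RNA present in the cells as well as the protein's contact with it, and RNA levels of NSC34 cells were not analysed here.

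**Figure D4:**
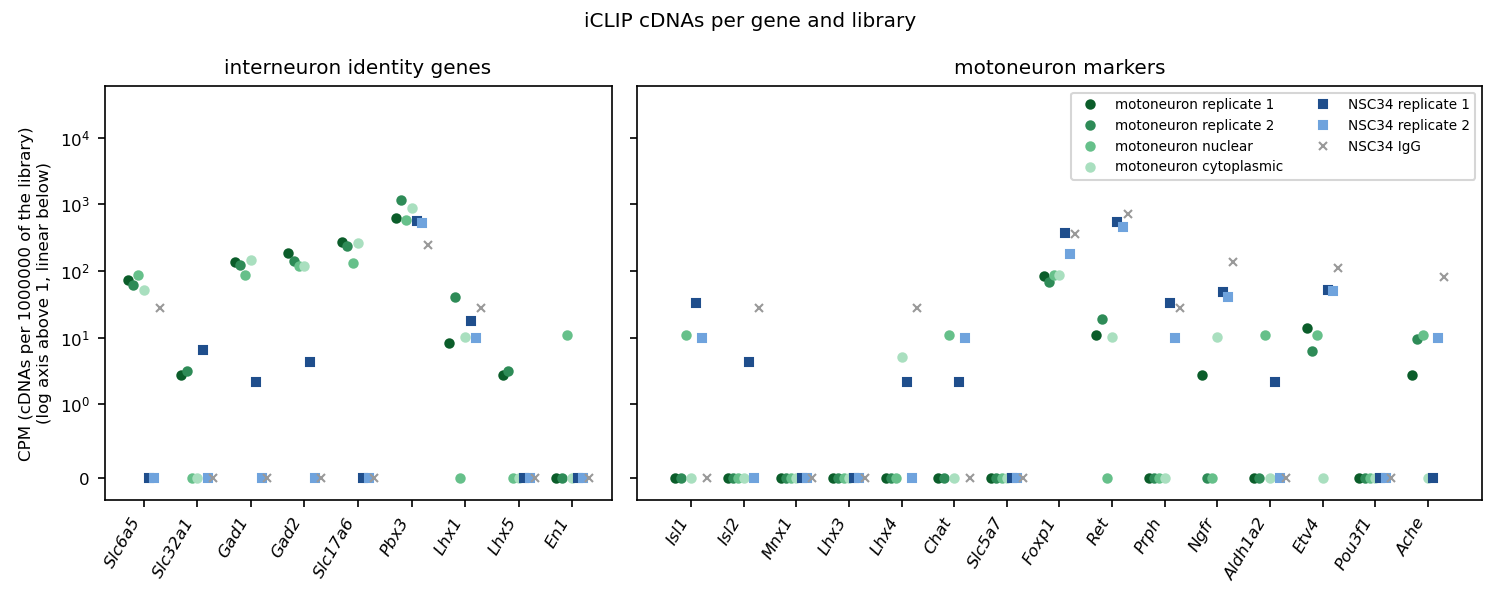
CPM (cDNAs per 1000000 of each library) for the 9 interneuron identity genes (left) and 15 motoneuron markers (right), on an axis that is logarithmic above 1 and linear below; circles are the 4 motoneuron libraries, squares NSC34 replicates, crosses IgG. Slc6a5, Gad1, Gad2 and Slc17a6 lie above 50 in every motoneuron library and under 5 in both NSC34 replicates, while Ret and Foxp1 lie higher in NSC34 cells.

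Pbx3 gave cDNAs in both cell types, with 227 and 375 in motoneurons and 256 and 52 in NSC34 cells, which is 632 and 1174 CPM against 561 and 521 CPM. The 2 motoneuron replicates differed almost as much from each other as the higher did from NSC34 cells. By edgeR's quasi-likelihood test its log2 ratio was 1.65 (SE 0.25, adjusted p = 6.97e-08), and 0.71 (adjusted p = 0.00818) when libraries were scaled by total cDNAs alone. Leaving out motoneuron replicate 2 gave 1.06, in edgeR's fit with adjusted p = 3.28e-07.

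Lhx1 did not pass, with 3 and 13 cDNAs in motoneurons and 8 and 1 in NSC34 cells (log2 ratio 1.50, SE 0.76, edgeR adjusted p = 0.116). It rested on 1 library: its log2 ratio was -0.06 without motoneuron replicate 2 and 2.09 (edgeR adjusted p = 0.0197) without motoneuron replicate 1. Slc32a1 gave 1 and 1 against 3 and 0, Lhx5 1 and 1 against 0 and 0, and En1 none in these 4 libraries. These 3 had fewer than 10 cDNAs and were not tested.

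Of the 6 members tested 5 were called higher in motoneurons by edgeR, beside 37.3% of all 9567 genes called and 23.4% called higher. Slc6a5, Gad1, Gad2 and Slc17a6 passed the filter only through the motoneuron libraries, so nothing is read from that count. Scaling also set the balance of calls over all genes: 62.7% of calls were higher with TMM scaling, 74.7% with DESeq2 and 27.4% with total cDNAs, whose median log2 ratio over all genes was -0.86 against 0.08.

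Among other genes, the 23 glycine and GABA synapse genes summed to 5025 and 4925 CPM in motoneuron replicates 1 and 2, 1749 and 1544 CPM in the NSC34 replicates and 2398 CPM with IgG. They include Glra2 and Gabra2, subunits of the glycine and GABA-A receptors, with no cDNA in either NSC34 replicate. The 15 motoneuron markers found summed to 114 and 103 CPM in the motoneuron replicates, 1090 and 772 CPM in the NSC34 replicates and 1488 CPM with IgG. The members summed to 1318 and 1788, 591 and 531, and 303 CPM. The sums of members and of synapse genes were thus higher in both motoneuron replicates than in the NSC34 replicates and the IgG library, and those of the motoneuron markers lower. Most member cDNAs of the NSC34 replicates were of Pbx3 (256 and 52). The small cytoplasmic NSC34 library of antibody 2 held the members at 5007 CPM, from 14 Pbx3 cDNAs. Isl1 and Prph passed the filter only through NSC34 cells, as Glra2 and Gabra2 did through motoneurons, so calls within these lists are not counted.

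Ret, the GDNF receptor, accounted for much of the markers' cDNAs in NSC34 cells, with 245 in replicate 1 and 46 in replicate 2 against 4 and 6 in the motoneuron replicates. Chat gave 1 cDNA over the 4 motoneuron libraries, Isl1 gave 1 and Mnx1 gave 0 of 964504. A count of 0 there allows up to 3.11 CPM. The iCLIP and RNA data of the cultures thus both held Chat and Mnx1 at or near 0. The hnRNP R libraries of NSC34 cells were as low, with 2 cDNAs of Chat and 0 of Mnx1. A low cDNA count does not by itself show low RNA: Slc32a1 had 2 cDNAs in motoneurons at 35.1 FPKM in control cell bodies.

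Against IgG, no member was called in NSC34 cells. Of 6 members tested 0 passed by edgeR, 2 had an unadjusted p under 0.05, and DESeq2 also called 0, beside 0.533% of 9567 genes called by edgeR. Pbx3 stood at 561 and 521 CPM in the NSC34 replicates and 248 in the IgG library (9 cDNAs, exact 95% interval 113 to 471). Its log2 ratio was 1.40 (SE 0.50, edgeR adjusted p = 0.244). Slc6a5 gave 1 cDNA with IgG and none in the NSC34 replicates. Motoneurons had no IgG library in these data, so the members' motoneuron cDNAs have no background measured the same way.

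Within their genes most cDNAs of the members lay in introns, with Lhx1 the exception among those with 10 or more cDNAs. Over the 4 motoneuron libraries the intron share was 96.3% for Pbx3 (797 of 828 cDNAs, Wilson 95% interval 94.7 to 97.4%), 84.4% for Slc6a5 (54 of 64, 73.6 to 91.3%), 83.2% for Gad1 (104 of 125, 75.7 to 88.7%), 81.6% for Gad2 (120 of 147, 74.6 to 87.1%) and 79.9% for Slc17a6 (191 of 239, 74.4 to 84.5%). All cDNAs of these libraries were 87.8% intronic. For Lhx1 the intron share was 33.3% (6 of 18, 16.3 to 56.3%). The interval lay above the share of all cDNAs for Pbx3, below it for Gad2, Slc17a6 and Lhx1, and held it for Slc6a5 and Gad1.

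Outside introns the genes differed in where the cDNAs fell. The 3′ UTR held 17.0% of Gad2 cDNAs (25 of 147, 11.8 to 23.9%), 16.7% of Slc17a6 (40 of 239, 12.5 to 22.0%) and 12.5% of Slc6a5 (8 of 64, 6.47 to 22.8%), beside 5.79% over all genes. Pbx3 had 0.36% there, 3 of 828 cDNAs. Gad1 had none of 125, with an interval up to 2.98%, and instead 16.8% in coding sequence (21 of 125, 11.3 to 24.3%) where all genes had 3.08%. The 2 GABA enzymes thus had intervals that did not overlap for the 3′ UTR. Lhx1, a short gene, had 12 of 18 cDNAs in the 3′ UTR (66.7%, 43.7 to 83.7%). The intervals cover counting error only, over pooled libraries, and the parts are those of Ensembl 59.

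**Figure D5:**
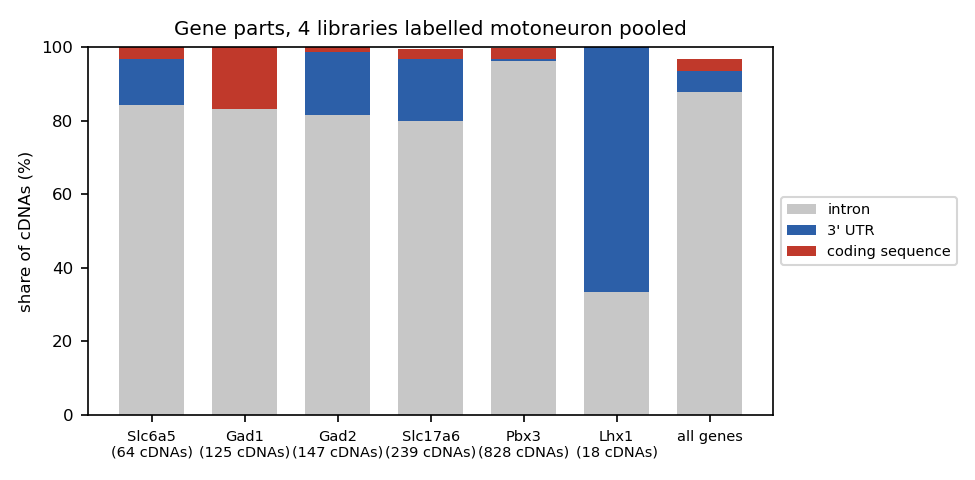
Share of cDNAs (%) in introns, 3′ UTR and coding sequence for the 6 members with 10 or more cDNAs over the 4 motoneuron libraries pooled, and for all genes. Introns hold 79.9% to 96.3% in 5 of these genes and 33.3% in Lhx1, and Gad1 has a coding share of 16.8% and no 3′ UTR cDNA; the remainder of a bar is other parts.

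Pbx3 had the highest FPKM and the most cDNAs of the members, and Lhx5 and En1 were lowest in FPKM. At similar RNA levels the cDNA counts could still lie apart: Slc32a1 and Slc6a5 had nearly equal control FPKM on the somatodendritic side (35.1 and 34.8), with 2 and 46 cDNAs in the unfractionated motoneuron replicates. Slc32a1 spans 4.99 kb and Slc6a5 53.1 kb on mm9, and per kb of gene span the counts were 0.401 and 0.867 cDNAs. Slc17a6 had 3.57 cDNAs per kb, Pbx3 2.98, Lhx1 2.15, Gad1 1.80 and Gad2 1.58. Per kb the order was therefore led by the glutamate transporter, with the inhibitory transmitter genes below it.

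Nuclear and cytoplasmic fractions gave no call for a member. In motoneurons the nuclear and cytoplasmic libraries held 53 and 173 cDNAs of Pbx3, which is 580 and 888 CPM, and 12 and 52 of Slc17a6. Gad2 gave 11 and 23, Gad1 8 and 29 and Slc6a5 8 and 10. Slc6a5 was thus at 87.6 CPM in the nuclear library (exact 95% interval 37.8 to 173) and 51.3 in the cytoplasmic one (24.6 to 94.4), which overlap. Of 5 members tested 0 were called by edgeR and 0 had an unadjusted p under 0.05, beside 0 of 5177 genes called (0%), 27 at an unadjusted p under 0.05, and 3 genes, no member among them, by DESeq2. With 1 library per fraction, cell type and antibody, and 2 cytoplasmic NSC34 libraries of 3569 and 2796 cDNAs, differences of the members were not detectable at this depth.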

How the data were processed

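RNA-seq of 22 libraries and iCLIP of 11 libraries were analysed. The members and all gene lists were chosen with earlier results of these data known.

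The RNA values came as 4 tables with 1 FPKM value per group, which the authors made with Cufflinks 2.2.1 after FastQC 0.10.1 on build GRCm38, per the submitters' processing notes. The log2 ratios, p-values and q-values were computed by the authors and deposited with the FPKM. Their score, the test statistic in the deposited tables, was not used. For the aligner, annotation release, strand and test settings nothing is given in the sources used here. A gene was called at q under 0.05 with a completed test. Medians over lists covered genes at 1 FPKM or more in either group and above 0 in both. Axonal and somatodendritic controls were set side by side with 0.1 FPKM added. The tables hold no replicate values, so no gene was refitted and read depth is unknown.

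The iCLIP values are the cDNA counts per gene that the authors deposited, on mm9 with Ensembl 59 per the file headers. The test was that of edgeR 4.0.16 under R 4.3.3 (quasi-likelihood, TMM scaling, Benjamini-Hochberg over genes with 10 or more cDNAs in the fit). It was tried on simulated counts. DESeq2 1.42.0, other filters, scaling by total cDNAs, each replicate left out and a replicate block were the alternatives. Unfractionated libraries shared 1 fit, and fractions were blocked by cells and antibody. Shares of cDNAs carry Wilson intervals at 95%, CPM (cDNAs per 1000000) exact Poisson ones, and a count of 0 allows up to 3 cDNAs; these cover counting error only. The iCLIP files' other 1232 value columns were left out. Named genes were all 9 members, the genes called in each list (up to 4), the 2 of each list with the highest control FPKM, and the 5 nearest in pattern to Slc6a5, Slc17a6 and Pbx3. Values of Glra1, Glra2, Gabra2 and single motoneuron markers were chosen after they were seen. Some genes that this rule names are not reported here. Plots were drawn with matplotlib 3.10.9.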

Additional observations from a re-analysis of the deposited data

How the results depend on the processing

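The calls of Slc6a5 after hnRNP R knockdown and Pbx3 after 7SK knockdown in cell bodies were the members' calls at q under 0.10 and under 0.01 as well. In the authors' test both had p = 5e-05, the smallest value over all genes tested and shared with others such as Rn7sk. Their p and q therefore do not rank them among the genes at that value. With the authors' unadjusted p under 0.05 the members' count was 2 instead of 1 for hnRNP R knockdown and 3 instead of 1 for 7SK knockdown in cell bodies. The medians of the members' log2 ratios moved by less than 0.1 in all 4 comparisons under every alternative tried. The members' axon to cell body median of -2.11 was -1.79 with 1 FPKM added, -1.96 with control values from the 7SK tables and -1.53 after subtracting the median of all genes; it was negative in each.

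In iCLIP the count of 5 members called higher in motoneurons than NSC34 cells was 4 (of 4 tested) at 50 cDNAs or more. Over all genes 1397 of 4631 were called higher at that filter. Nothing is read from the members' count, since Slc6a5, Gad1, Gad2 and Slc17a6 passed the filter only through the motoneuron libraries. Lhx1 ranged from -0.063 to 2.09 over the replicates left out. With a replicate block it was 5 members of 3211 genes called; replicate numbers did not pair the libraries (correlation of deviations -0.01 across 4499 genes), so the block says nothing of the effect. Against IgG, Gad1 and Gad2, neither called, were 1.90 and 2.68 by edgeR and -1.12 and -0.35 by DESeq2. In the fractions, with no call for a member, Slc6a5 was 0.63 by edgeR and -1.11 by DESeq2, Gad2 -0.071 and 0.069 with total cDNAs, and Pbx3 -0.26, with a range from -1.59 to 1.30 over the pairs left out; without the replicate block 0 members were called. The cause was not tested for these reversals.

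Over all genes, calls of motoneurons against NSC34 cells numbered 3566 by edgeR, 1530 by DESeq2 and 1954 without NSC34 replicate 1. Against IgG they were 51, with 11 by DESeq2, 81 with total cDNAs and 6 without NSC34 replicate 2. For the fractions they were 0, with 3 by DESeq2 and 6 without the motoneuron pair. The scaling by total cDNAs and the fit without IgG were chosen after seeing the data. The RNA tables hold 1 value per group, so no paired or left-out fit of them could be had, and members under the authors' tested range carry no test.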
